A study of Mus musculus with 16 samples.

Results

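The libraries described here are the 10, of 16 in the series, that contained skeletal muscle RNA, divided by how much of the valve factor Tbx20 they held. A library was taken as muscle-containing where Mylpf reached a normalised count of at least 100. Within these 10, 5 libraries with Tbx20 below 300 were called Tbx20-poor and 5 with Tbx20 of at least 300 were called Tbx20-rich. The other 6 libraries, 4 wild-type and 2 mutant, were muscle-free by the same threshold and served as a reference that the division did not use. The groups were therefore chosen from measured values, so what follows between them is a description over all genes other than Tbx20 and Mylpf, with no test.

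Laser microdissection was used to take the aortic and pulmonary valves of E14.5 mouse embryos, and their amplified RNA was sequenced. The study compared wild-type embryos with Jag1flox;Nkx2.5-Cre embryos, called mutants below, in which a floxed allele of the Notch ligand gene Jag1 meets Cre recombinase under the control of Nkx2.5, a gene active in heart progenitors. The labels give all embryos a C57BL/6 background and define 4 groups by genotype and valve, each of 4 libraries. Aortic libraries were batch 1 and pulmonary libraries batch 2, which leaves batch and valve impossible to tell apart. The labels name 5 litters and tie no library to an embryo, so the spread between libraries may be partly technical.

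Semilunar valves form from endocardial cushions, swellings in which endocardial cells turn into mesenchyme that lays down a hyaluronan-rich and later collagen- and elastin-rich matrix. Tbx20 is a T-box transcription factor of the heart that is expressed in cushion mesenchyme and needed for its growth, and Gata4, Gata6 and Hand2 work in the same tissue. Mylpf encodes the regulatory light chain of fast skeletal muscle myosin, a muscle of the body and limbs and not of the heart.

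Values are the authors' normalised counts, and in every list of 5 the Tbx20-poor libraries come in the order wild-type aortic 1 and 3, mutant aortic 1, and then the pulmonary libraries wild-type 1 and mutant 1. The Tbx20-rich libraries come in the order mutant aortic 2, mutant aortic 3, wild-type pulmonary 3, mutant pulmonary 2 and mutant pulmonary 3. Tbx20 (GRCm38, chromosome 9, 24718138 to 24774303) was 101, 123, 102, 119 and 98.0 in the poor libraries and 613, 763, 947, 976 and 549 in the rich ones. It was 1032 to 1744 in the 6 muscle-free libraries, so the poor median was 7.06% and the rich median 53.0% of the muscle-free median. Mylpf (chromosome 7, 127208890 to 127214298) was 899.5, 493, 340.2, 402 and 412 in the poor libraries and 278, 483, 485, 341 and 374 in the rich ones, and 0.569 to 23.2 in the muscle-free ones. The lowest Mylpf inside the selection was 278 in mutant aortic library 2 and the highest outside it was 23.2 in wild-type aortic library 2. The nearest libraries on either side of the Tbx20 threshold were wild-type aortic library 3 at 123 and mutant pulmonary library 3 at 549, so thresholds of 200 or 500 give the same members.

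**Figure D1:**
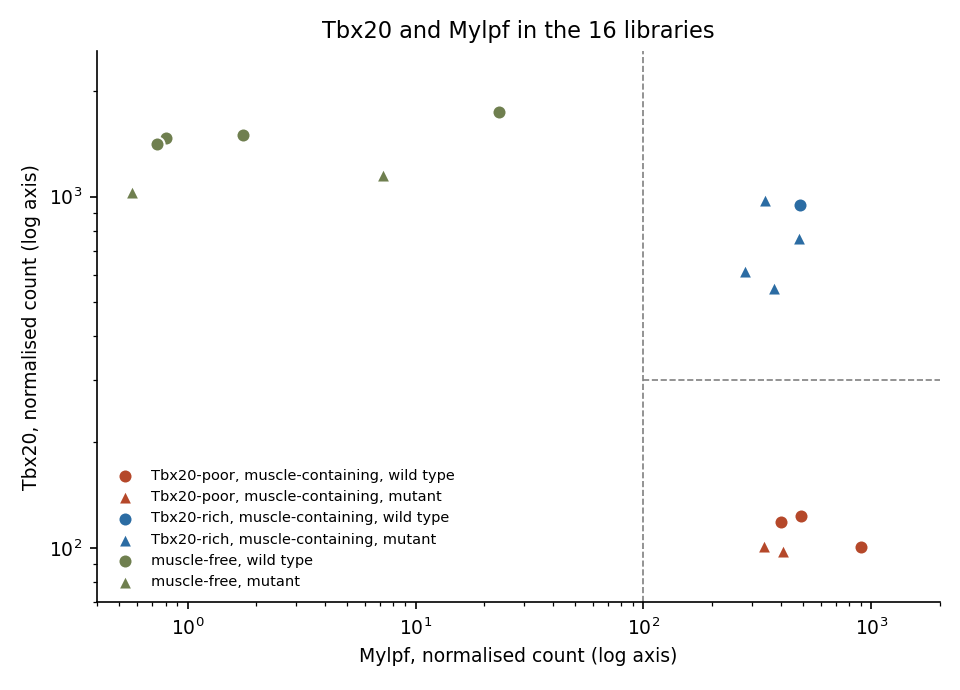
Normalised count of Tbx20 (vertical, log axis) against that of Mylpf (horizontal, log axis) in each of the 16 libraries, with colour for the 3 sets, circles for wild type and triangles for mutants, and dashed lines at the thresholds of 100 and 300. No library lies between 123 and 549 in Tbx20 or between 23.2 and 278 in Mylpf.

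Both sets mixed the study's labels. The poor set held 3 wild-type and 2 mutant libraries, 3 of them aortic and 2 pulmonary, and the rich set held 1 wild-type and 4 mutant libraries, 2 aortic and 3 pulmonary. Of the poor libraries 3 came from litter JNC10 and 2 from JND8. Of the rich libraries 2 came from JND8, 2 from JND7 and 1 from JNC10. The muscle-free libraries came from JND7, JGJ68 and JGH66, 2 from each, so none shared a litter with a poor library. Recovered reads were 6.50 to 8.68 M in the poor, 4.56 to 8.25 M in the rich and 4.98 to 7.49 M in the muscle-free libraries (M, 1e6 reads). The share of the mitochondrial ribosomal RNA mt-Rnr2 was 18.9% to 26.1% in the poor, 17.3% to 21.7% in the rich and 12.5% to 14.46% in the muscle-free libraries, and its part in the differences below was not tested. Jag1, the targeted gene, was 20.2, 39.7, 13.6 and 25.7 in the 4 wild-type muscle-containing libraries and 9.90, 11.4, 5.93, 12.4, 4.70 and 3.78 in the 6 mutant ones, so the genotypes did not overlap. The exons that the deletion removes are not stated in the labels, so a count over the whole gene need not reach 0.

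The division by Tbx20 was accompanied by far more genes lower than higher in the poor libraries. A gene was called apart where all 5 poor libraries lay on one side of all 5 rich ones and the mean of log2(value + 1) differed by at least 1, a 2-fold change. Of 13805 genes compared, 543 (3.93%) were apart and lower in the poor libraries and 46 (0.333%) were apart and higher, which makes 589 (4.27%) in all. With no limit on size, 809 genes (5.86%) were lower without overlap and 285 (2.06%) were higher. The median difference over all genes was 0.04, and 7346 genes (53.2%) had a higher mean in the poor libraries. Without any 1 of the 10 libraries the counts were 550 to 685 lower and 59 to 103 higher, since non-overlap is easier to meet with fewer libraries. Another 294 genes had a mean at least 1 higher in the poor libraries and 396 a mean at least 1 lower, but their libraries overlapped. Differences are on the log2(value + 1) scale, which understates the change of low genes, and in bulk RNA fewer cells of a type and less RNA per cell cannot be told apart.

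**Figure D2:**
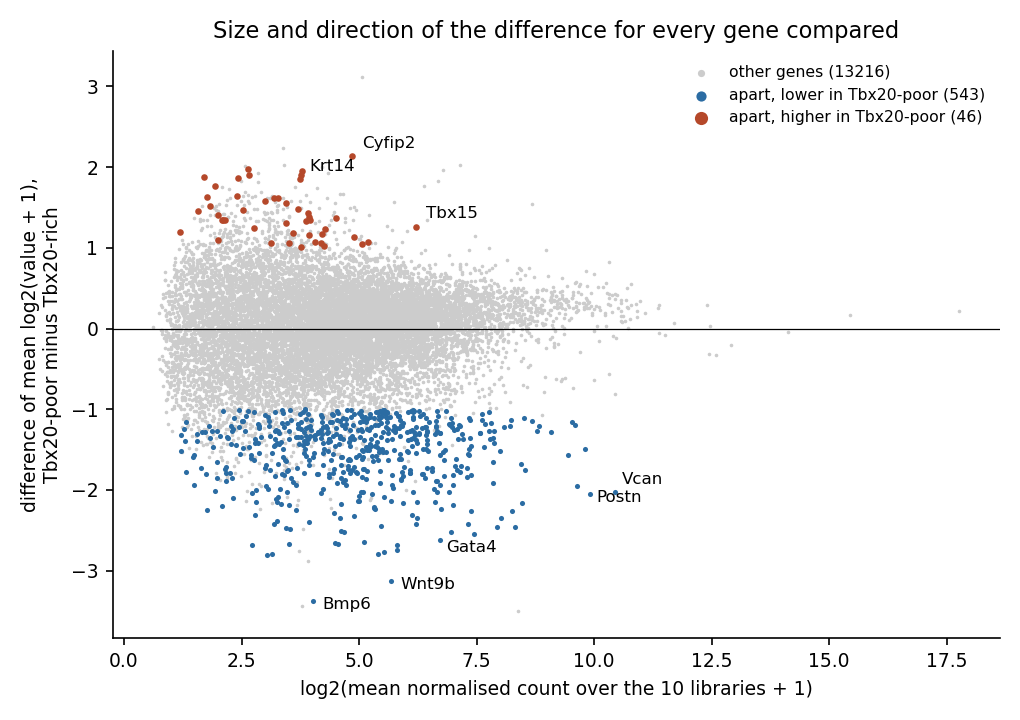
Difference of mean log2(value + 1), Tbx20-poor minus Tbx20-rich, against log2 of the mean normalised count plus 1, one point per gene for the genes compared. The 543 genes apart and lower reach down to -3.38 (Bmp6), and the 46 apart and higher reach 2.14 (Cyfip2).

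Of 24 cushion mesenchyme genes measured, 13 were apart and lower, against 3.93% of all genes, and none was apart and higher. The list's median difference was -1.34, against 0.04 for all genes. The 13 were the transcription factors Gata4, Gata6, Hand2, Nfatc1 and Meox1, and Postn, Vcan, Has2, Hapln1, Dcn, Lum, Pdgfra and Smad6, which encode matrix proteins, a matrix enzyme, a receptor and a signalling inhibitor. Most transcription factors of the list, among them Sox9, Twist1, Twist2, Msx1, Msx2, Snai1, Snai2, Prrx1, Prrx2 and Tcf21, were not apart. Gata4 (chromosome 14, 63198922 to 63271692), a zinc-finger factor required for cushion mesenchyme, was 29.9, 27.1, 31.7, 20.1 and 32.3 in the poor and 184, 155, 250.4, 164 and 144 in the rich libraries, a difference of -2.62. The poor libraries lay within a narrow band, and their median was 9.25% of the muscle-free median. Gata6, its paralogue in outflow tract development, was 18.2, 21.8, 9.53, 11.4 and 10.3 against 59.0, 86.3, 57.2, 64.3 and 38.5, a difference of -2.05. Gata5, the third heart GATA factor, mainly endocardial and not a member of that list, was 4.07, 12.7, 4.46, 2.22 and 11.3 against 33.5, 22.2, 25.7, 23.1 and 33.6, a difference of -2.04. All 3 GATA genes thus had their highest poor library under their lowest rich library. Hand2, a basic helix-loop-helix factor of the outflow tract, was 10.5, 17.3, 13.9, 6.65 and 18.2 against 45.1, 39.4, 48.9, 49.1 and 36.0, a difference of -1.71. These 4 were the only genes apart among 13 in a list of heart factors, with a median difference of -0.52. That list shares Gata4, Gata6 and Hand2 with the cushion mesenchyme list, so only Gata5 is added by it. Of the 13, 5 had a higher mean in the poor libraries. Among them Mef2c was 197 to 428 against 108 to 187, a difference of 0.70 without overlap, and the muscle-free libraries held only 27.8 to 77.9.

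Several factors of the cushion mesenchyme list were not apart, for reasons that were not tested. Sox9, which acts in cushion mesenchyme and in cartilage, was 62.6, 79.4, 249.6, 99.8 and 106 in the poor and 121, 129.7, 134, 157 and 125 in the rich libraries. Twist1, a factor of mesenchyme in cushions and in limb buds, was 28.4, 63.4, 117, 16.5 and 32.7 against 38.8, 27.0, 67.6, 45.9 and 85.0. Prrx1, a homeobox factor of limb, facial and valve mesenchyme, was 330.1, 324, 706, 197 and 248 against 258, 191, 272, 234 and 408. For Sox9, Twist1 and Prrx1 the same library, mutant aortic 1, was the highest of the 10 and the differences were -0.33, -0.24 and 0.30. Pdgfra, a receptor of mesenchymal cells, was apart with a difference of -1.11, and the BMP-induced inhibitor Smad6 was apart with -1.37. Msx1 and Msx2, homeobox targets of BMP signalling in cushions, had differences of -1.35 and -1.99 and overlapped only through mutant aortic library 1, at 51.0 and 32.9. The other poor libraries held 1.78 to 4.35 of Msx1 and 2.07 to 5.03 of Msx2, under the lowest rich values of 7.20 and 10.8.

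The genes apart and averaging at least 10 with the largest differences included secreted signals. Bmp6 (chromosome 13, 38345107 to 38500302), a BMP ligand expressed in cushions and endocardium, was 0.543, 3.85, 4.21, 0 and 3.16 in the poor libraries and 24.1, 34.1, 31.3, 32.7 and 19.3 in the rich ones, a difference of -3.38. It was listed at 0 in wild-type pulmonary library 1, and the muscle-free libraries held 34.7 to 63.4. Wnt9b (chromosome 11, 103727364 to 103749821), a Wnt ligand made by valve endocardium, was 12.2, 2.07, 17.7, 3.41 and 24.7 against 144, 64.7, 87.1, 83.5 and 60.9, a difference of -3.13. Within the poor set Wnt9b was higher in both mutant libraries than in the 3 wild-type ones. Fstl3, a secreted binder of activins, was 0.679, 6.22, 2.72, 1.54 and 0.818 against 20.2, 23.0, 14.6, 24.6 and 9.52, a difference of -2.66. Ntn4, a laminin-like netrin of vessel walls, was 19.7, 13.0, 20.9, 1.71 and 28.5 against 155, 51.8, 70.9, 96.4 and 93.1, with wild-type pulmonary library 1 the lowest.

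**Figure D3:**
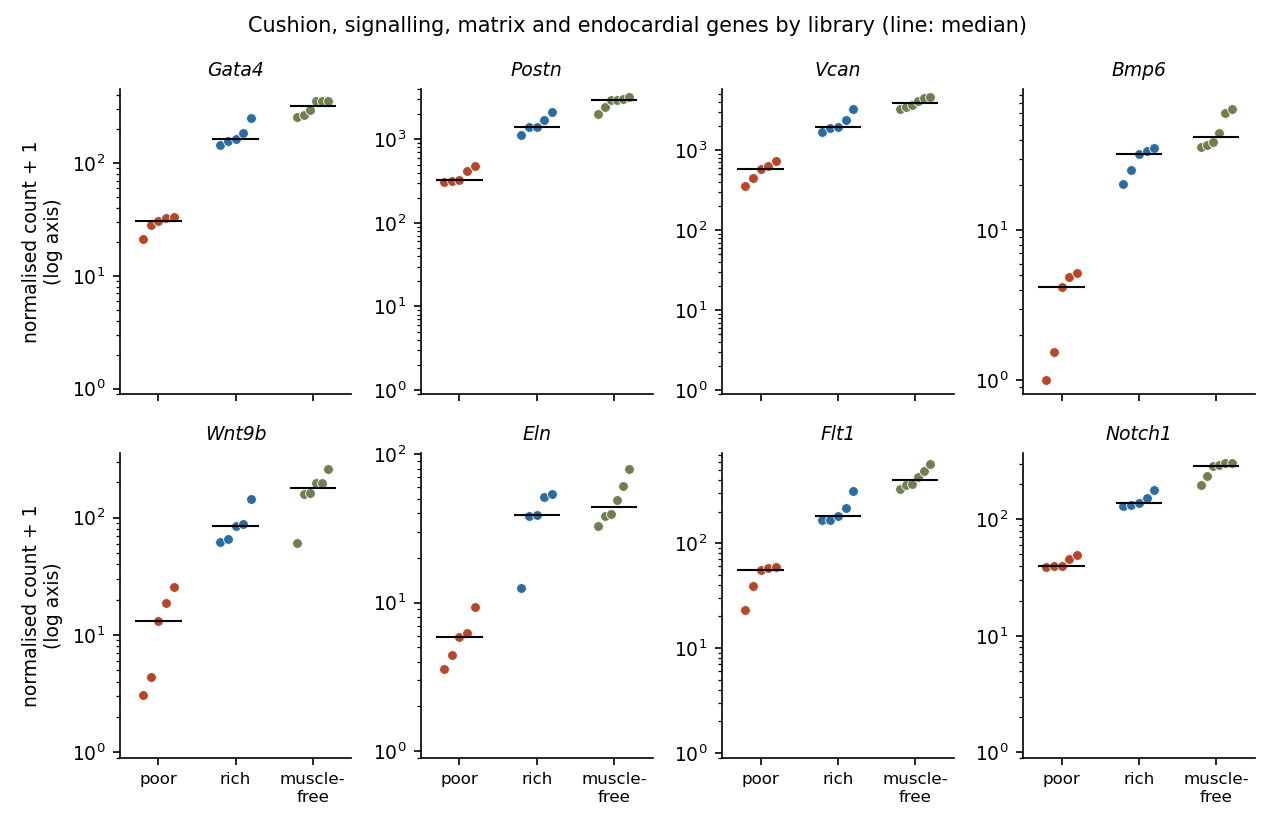
Normalised count plus 1 (log axis) of 8 genes in each Tbx20-poor, Tbx20-rich and muscle-free library, 1 panel per gene, with a line at the median. In all 8 panels the 5 poor libraries lie under the 5 rich ones, for Gata4 20.1 to 32.3 against 144 to 250.4 before adding 1.

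Other genes with large differences came from several functions. Kcnj15, an inward-rectifier potassium channel, was 9.51, 6.22, 10.8, 20.5 and 3.16 against 27.1, 132, 64.2, 80.1 and 62.4, a difference of -2.79. Ptx3, a secreted pentraxin that can join the hyaluronan matrix, was 2.58, 4.89, 14.2, 1.54 and 6.90 against 72.8, 37.2, 24.1, 27.5 and 31.6, a difference of -2.66. Mical2, an enzyme that disassembles actin filaments, was 52.1, 65.5, 40.2, 34.5 and 55.7 against 325, 243, 401, 315 and 193, a difference of -2.54. In Kcnj15 the rich mutant aortic library 2 was much nearer to the poor libraries than the other 4 rich ones. Ecm1, a secreted matrix protein, the olfactomedin-domain protein Olfml2a and the magnesium transporter Nipal4 had differences of -2.53, -2.52 and -2.51. The poor medians of Mical2 and Olfml2a were 12.5% and 9.76% of the muscle-free medians, and the rich medians 75.8% and 51.0%.

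Vcan, Postn, Has2 and Hapln1, matrix genes counted above in the cushion mesenchyme list, were apart and lower. Vcan, the hyaluronan-binding proteoglycan versican of cushion jelly, was 576, 355, 719, 632 and 449 in the poor and 1942, 1864, 3281, 2399 and 1678 in the rich libraries, a difference of -2.03. Postn, the matricellular protein periostin of maturing valves, was 482, 318, 307, 417 and 325 against 1401, 1418, 2122, 1692 and 1115, a difference of -2.05. The poor medians were 14.8% of the muscle-free median for Vcan and 10.9% for Postn, and neither gene was absent from any library. Has2, the enzyme that makes hyaluronan, and Hapln1, which links it to versican, were apart with differences of -1.53 and -1.65.

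In the separate valve matrix list, 14 of 26 genes were apart and lower, against 3.93% of all genes. None was apart and higher, and the median difference was -1.18. Its elastic-fibre genes, picked out after their values were seen, were not all apart. Eln, elastin itself, was 4.89, 8.30, 5.20, 3.41 and 2.57 in the poor and 37.6, 50.5, 37.8, 53.4 and 11.5 in the rich libraries, a difference of -2.65. Mutant pulmonary library 3 was the lowest of the rich set, close to the highest poor library. Fbln2 and Fbln5, fibulins that bind elastin and fibrillin, were 39.7, 79.4, 46.4, 52.0 and 29.6 against 164, 295, 315, 365 and 191 and 25.1, 55.4, 37.0, 28.8 and 40.8 against 120.1, 289.6, 99.6, 199.6 and 109. Ltbp2, a fibrillin-binding protein of microfibrils, was 1.63, 22.8, 9.90, 13.0 and 4.56 against 47.5, 77.1, 53.0, 74.9 and 31.1, a difference of -2.64. Fbn1 and Fbn2, the fibrillins, were apart with differences of -1.92 and -1.67, and the microfibril protein gene Mfap4 with -1.06. Mfap5, its relative in name, had a difference of -1.0 with overlap, and Lox, the enzyme that cross-links elastin and collagen, had 0.06 with overlap. The adhesive glycoproteins Thbs1 and Fn1 were apart with -2.34 and -1.94.

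The collagens differed among themselves. Col3a1, the collagen III of compliant tissues, was 404, 423, 241, 423 and 288 against 1086, 1113, 1123, 1149 and 751, a difference of -1.57 with no overlap. Col1a1, a chain of the collagen I that is also abundant in bone, tendon and skin, was 588, 761, 325, 599 and 415 against 809.6, 906, 828, 895 and 555, a difference of -0.61 with overlapping libraries. Its partner chain Col1a2 had a difference of -0.63 and also overlapped. Ogn and Aspn, small leucine-rich proteoglycan genes of many connective tissues, had means higher in the poor libraries by 0.73 and 0.55, again with overlap. Matrix proteases were among the genes with the largest differences outside the list: Adamts19, a protease expressed in developing valves, was 15.2, 10.1, 19.8, 7.85 and 15.3 against 88.7, 83.5, 107, 136 and 64.4, and Adamts8 was 10.6, 7.11, 20.9, 3.58 and 19.1 against 81.3, 107, 65.8, 77.3 and 59.1.

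Genes of endothelium, which includes the endocardium that covers the cushions, were lower in the poor libraries. Of 19 endothelial genes, 11 were apart and lower, against 3.93% of all genes. None was apart and higher, and the median difference was -1.37. Flt1, a receptor for vascular endothelial growth factors, was 57.6, 37.8, 54.7, 22.2 and 58.6 in the poor and 316, 164, 215, 179.8 and 165 in the rich libraries, a difference of -2.18. Tek, the angiopoietin receptor, was 28.0, 15.7, 36.8, 15.9 and 42.8 against 175, 96.0, 104, 122 and 104, and its relative Tie1 was 14.7, 13.8, 7.18, 11.3 and 13.0 against 93.4, 48.6, 48.6, 37.7 and 38.9. Wild-type pulmonary library 1 was the lowest of the 10 for Flt1, and mutant aortic library 2 was the highest for all 3 receptors. Cdh5 and Pecam1, junction proteins of all endothelia, were apart with differences of -1.62 and -1.52, and Klf2, a flow-responsive factor, with -1.78. Emcn, Robo4 and Klf4 had differences of 0.19, 0.20 and -0.03, with overlap.

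Notch pathway genes differed among themselves. Of 16 measured, 4 were apart and lower, against 3.93% of all genes. None was apart and higher, and the median difference was -0.32. Among receptors, Notch1, the main receptor of endocardium, was 48.1, 38.8, 38.6, 38.4 and 44.8 in the poor and 177, 128, 136, 150.3 and 131 in the rich libraries, a difference of -1.76. Notch3, a receptor of smooth muscle and pericytes, was 14.4, 15.7, 8.91, 7.51 and 12.7 against 19.4, 27.4, 54.2, 33.3 and 24.6, a difference of -1.31. Notch2 and Notch4 had means lower by -0.91 and -1.33, and neither met the rule. Among ligands, Dll1 was 1.49, 1.33, 0.371, 0 and 5.14 against 10.8, 12.0, 8.80, 12.5 and 6.16, a difference of -2.31. The ligand Jag1 had a mean higher by 0.98 in the poor libraries, with overlap, and 3 of 5 poor but 1 of 5 rich libraries were wild type. Among targets, Hey2, a repressor induced by Notch, was 10.6, 15.3, 14.6, 13.3 and 23.7 against 65.0, 40.2, 53.3, 64.8 and 47.6, a difference of -1.77, whereas the targets Hey1 and Hes1 had means higher by 0.84 and 0.47, with overlap.

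Supporting tissues of vessels and loose connective tissue had a smaller share of genes apart than the cushion, matrix and endothelial lists. That share was still above the 3.93% of all genes that were apart and lower. Of 14 smooth muscle and pericyte genes, 3 were apart and lower: Itga8, an integrin chain, Cnn1, the actin-binding calponin, and Pdgfrb, the pericyte growth factor receptor. Their differences were -1.78, -1.62 and -1.35. The muscle-free medians were 68.2, 27.3 and 130, against rich medians of 48.8, 31.7 and 51.0. Over the 14 genes, 5 had a muscle-free median above the rich one. The list's median difference was -0.33, and its contractile genes Acta2 and Myh11 had differences of -0.47 and 0.97, with overlap. Of 10 loose connective tissue genes, 4 were apart and lower, Pi16, Dpt, Cd34 and Mgp, with differences of -2.28, -1.78, -1.56 and -1.22. In the muscle-free libraries their medians were 79.4, 191, 235 and 135, above the rich medians of 29.0, 81.6, 142 and 101. Over the 10 genes, 6 had a muscle-free median above the rich one. The median difference of the loose connective tissue list was -0.45. Its mean log2 was 5.08 to 5.24 in the poor and 5.74 to 6.07 in the rich libraries, without overlap, and 5.66 to 6.14 in the muscle-free ones.

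Skeletal muscle was present in both sets and did not separate them. Of 17 fast skeletal muscle genes other than Mylpf, none was apart in either direction, and the median difference was 0.15. Acta1, skeletal muscle actin, was 421, 196, 111, 152 and 125 in the poor and 105, 195, 156, 139.8 and 93.2 in the rich libraries. Myh3, embryonic myosin heavy chain, was 418, 191, 119.8, 228 and 200.2 against 181, 236, 433, 191 and 73.9. In both genes wild-type aortic library 1 was among the highest, while the other 4 poor libraries lay within or near the rich range. The muscle-free libraries held 0 to 5.17 for Acta1 and 0 to 11.7 for Myh3, and the highest of them in both was wild-type aortic library 2.

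Genes of muscle progenitors and of muscle innervation also overlapped. Of 15 myogenic genes none was apart, with a median difference of 0.42. Pax7, the factor of muscle stem and progenitor cells, was 55.7, 17.9, 5.94, 15.9 and 17.3 against 9.40, 15.6, 9.27, 11.1 and 7.28. Myog, which drives terminal differentiation, was 101, 61.0, 33.4, 35.5 and 37.9 against 28.4, 31.9, 23.4, 50.2 and 30.7. Wild-type aortic library 1 was the highest of the 10 in both. Chrna1, a subunit of the muscle acetylcholine receptor, was 26.6, 18.7, 4.33, 15.5 and 6.31 against 8.46, 6.43, 8.34, 3.62 and 9.10, a difference of 0.70.

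Genes of the cardiomyocyte list varied strongly between libraries but not with the division. Of 21 cardiomyocyte genes none was apart, and the median difference was -0.29. Myh7, the ventricular myosin heavy chain of the embryo, was 26.8, 156, 7.30, 47.8 and 30.0 in the poor and 18.0, 136, 125, 575 and 12.0 in the rich libraries. Mybpc3, cardiac myosin-binding protein C, was 0.951, 27.7, 0.124, 1.54 and 0 against 2.98, 6.94, 24.3, 61.7 and 0, and Pln, the regulator of the calcium pump, was 2.17, 64.5, 8.04, 13.8 and 3.98 against 8.93, 53.1, 24.8, 107 and 5.46. Wild-type aortic library 3 was the highest poor library for these 3 genes and mutant pulmonary library 2 the highest of all 10. The mean log2 of the list was 4.05 to 6.60 in the poor, 3.97 to 6.74 in the rich and 2.33 to 4.58 in the muscle-free libraries. Members did not move together: wild-type aortic library 1 was the highest of the 10 for Actc1, at 2151, but held 0.951 of Mybpc3. The list mean therefore need not measure heart muscle alone, and the part of skeletal muscle in it was not tested.

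No tissue list had most of its members apart and higher in the poor libraries. Of the 33 lists examined, 1 had no member above the filter and none had more than 2 members apart and higher. Epithelium had 2 of 13, bone 1 of 8, body wall and limb factors 1 of 10 and Hox genes 1 of 21, against 0.333% of all genes. The median differences of these 4 lists were 0.90, 1.33, 1.19 and 0.57. The mean log2 of the bone list was higher in every poor library than in every rich one, at 3.41 to 4.44 against 2.40 to 2.94. The same held for Schwann cell and neural crest genes, at 2.92 to 3.66 against 2.34 to 2.88.

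Epithelial genes had higher means in the poor libraries at low levels. Of 13 epithelial genes, 12 had a higher mean, against 53.2% of all genes, and the keratins Krt14 and Krt15 were apart. Krt14 (chromosome 11, 100203162 to 100207548), a keratin of basal cells in stratified epithelium, was 17.4, 24.2, 24.8, 14.0 and 14.1 in the poor and 8.77, 0.505, 2.78, 5.64 and 10.9 in the rich libraries, a difference of 1.85. Krt15 (chromosome 11, 100131758 to 100135928), of the same layer, was 15.2, 34.1, 20.5, 20.8 and 13.2 against 9.08, 4.92, 2.32, 12.2 and 9.24, a difference of 1.43. Of the 6 muscle-free libraries, wild-type aortic library 2 held 5.48 of Krt14 and 3.92 of Krt15, and the other 5 held at most 0.122 and 0.247. Krt5, the partner of Krt14 in basal filaments, was 17.0, 64.2, 32.5, 24.2 and 11.3 against 10.3, 2.52, 3.94, 16.9 and 25.8, and Trp63, the master factor of that layer, had a difference of 1.55, both with overlap. Cldn3, a tight-junction claudin of simple epithelia, had a difference of -1.31, the opposite direction.

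Bone genes had higher means in the poor libraries for all 8 members, against 53.2% of all genes, and 1 of the 8 was apart. Sp7 (chromosome 15, 102356606 to 102367182), the factor that commits cells to osteoblasts, was 28.8, 45.0, 10.1, 10.9 and 11.7 in the poor and 1.57, 8.83, 4.17, 4.70 and 2.52 in the rich libraries, a difference of 1.96 without overlap. Ibsp, bone sialoprotein, was 59.5, 114, 18.9, 40.9 and 30.6 against 7.83, 35.6, 25.9, 16.4 and 8.40, with wild-type aortic library 3 the highest. Runx2, which acts before Sp7, was 58.1, 60.3, 74.6, 32.4 and 60.0 against 60.9, 31.8, 20.6, 26.6 and 47.6, and the rich mutant aortic library 2 and mutant pulmonary library 3 lay inside the poor range. Phex and Spp1, genes of mineralising matrix, had differences of 1.44 and 1.64, with overlap. The mean log2 of the bone list was 3.41 to 4.44 in the poor, 2.40 to 2.94 in the rich and 0.83 to 1.40 in the muscle-free libraries.

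Cartilage and tendon were less uniform. Of 14 cartilage genes none was apart and 8 had a higher mean (53.2% over all genes), with a median difference of 0.47. Col2a1, the main collagen of cartilage, was 57.0, 394, 165, 462 and 158 against 312, 123, 36.6, 139 and 92.1, and Acan, the cartilage proteoglycan aggrecan, was 5.70, 56.8, 9.28, 63.5 and 17.2 against 40.6, 5.68, 2.32, 12.3 and 9.10. Library 3 of the wild-type aortic group and library 1 of the wild-type pulmonary group were high in the poor set, and mutant aortic library 2 in the rich set. Of 6 tendon genes none was apart. Tnmd, a membrane protein of tendon cells, was 12.5, 20.6, 15.3, 6.65 and 5.38 against 6.42, 4.29, 13.9, 4.03 and 5.46 and was listed at 0 in all 6 muscle-free libraries.

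Positional factors of body wall and limb had higher means in the poor libraries for all 10 members, against 53.2% of all genes, and 1 of the 10 was apart. Tbx15 (chromosome 3, 99240381 to 99354259), a T-box factor of limb and trunk mesenchyme, was 129, 84.5, 154, 77.1 and 69.8 in the poor and 66.7, 31.9, 27.3, 26.3 and 67.9 in the rich libraries, a difference of 1.26. The lowest poor library, at 69.8, lay just above the highest rich one, at 67.9, and the muscle-free libraries held 0 to 6.81. Lmx1b, the factor of dorsal limb identity, was 2.72, 18.2, 51.2, 6.82 and 14.0 against 2.19, 2.40, 2.32, 1.21 and 22.1, and Pax1, a factor of the ventral somite and pharyngeal pouches, was 2.17, 13.3, 11.4, 17.9 and 19.1 against 1.57, 5.05, 1.39, 6.31 and 8.82. For Lmx1b the highest library was mutant aortic 1, and mutant pulmonary library 3 of the rich set was the next.

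Hox genes, which mark position along the body axis, were measured at low levels. All 21 kept had a higher mean in the poor libraries, against 53.2% of all genes, and 1 was apart. Proliferation genes, with 28 of 28, had the same uniform direction. That gene, Hoxb6, was 3.26, 4.59, 3.47, 3.41 and 7.60 against 1.57, 1.77, 1.16, 2.01 and 0.980, a difference of 1.09. The mean log2 of the 21 genes was 2.78 to 3.54 in the poor, 2.07 to 2.84 in the rich and 0.10 to 1.32 in the muscle-free libraries. Among the muscle-free libraries wild-type aortic library 2 was the highest, at 1.32. Posterior members differed between poor libraries: Hoxa10 was 14.9, 53.5, 52.8, 2.22 and 3.74, highest in wild-type aortic library 3 and mutant aortic library 1, and Hoxb9 was 2.31, 5.63, 13.1, 4.09 and 42.3, highest in mutant pulmonary library 1.

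**Figure D4:**
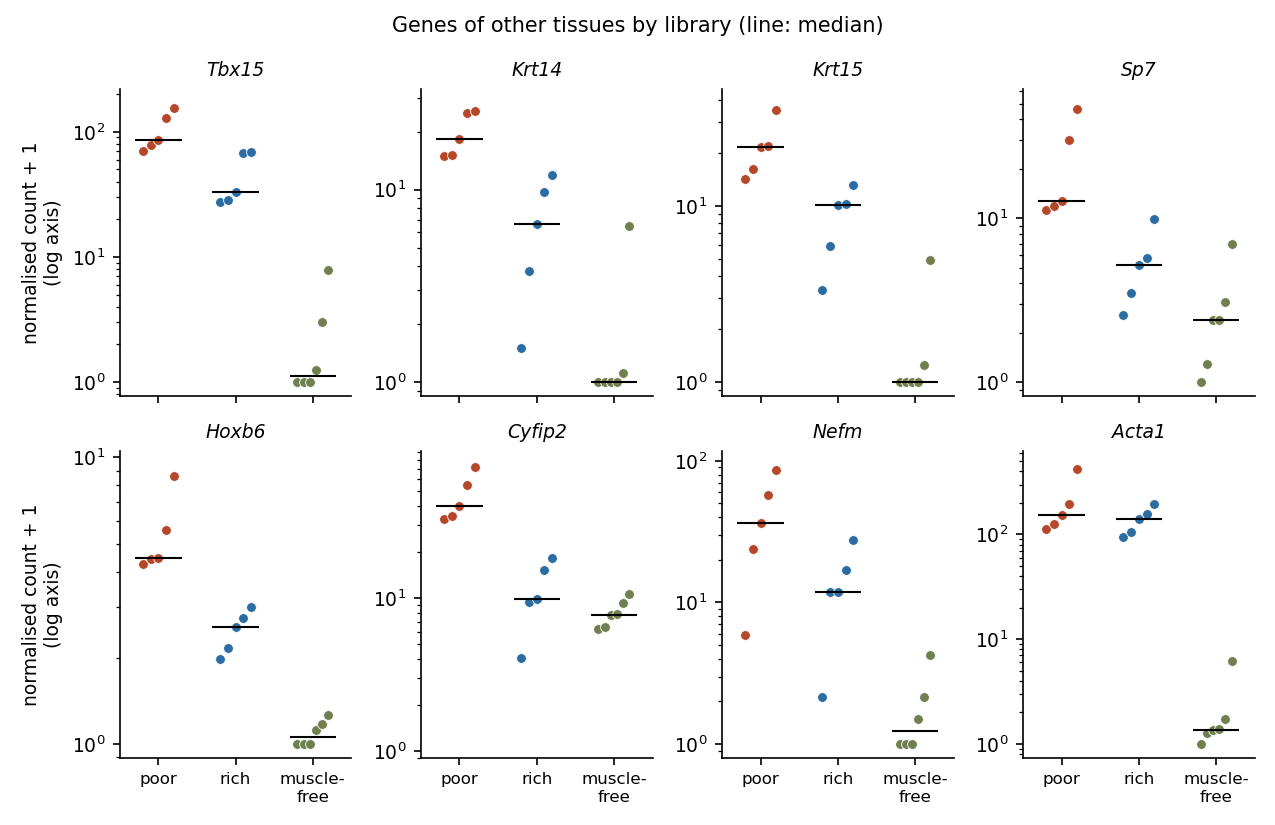
Normalised count plus 1 (log axis) of 8 genes in each Tbx20-poor, Tbx20-rich and muscle-free library, 1 panel per gene, with a line at the median. The poor libraries lie above the rich ones for Tbx15, Krt14, Krt15, Sp7, Hoxb6 and Cyfip2, and overlap them for Nefm and Acta1.

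Nerve genes overlapped. Of 13 neuronal genes none was apart and 10 had a higher mean (53.2% over all genes), with a median difference of 0.38. Nefm, a neurofilament subunit, was 4.89, 35.6, 23.0, 56.1 and 84.5 in the poor and 15.8, 26.6, 1.16, 10.9 and 10.9 in the rich libraries, lowest in wild-type aortic library 1 among the poor. The mean log2 of the neuronal list overlapped, at 2.27 to 5.59 in the poor and 2.33 to 4.41 in the rich libraries. Of 10 Schwann cell and neural crest genes none was apart, and the median difference was 0.81. Their mean log2 was 2.92 to 3.66 in the poor and 2.34 to 2.88 in the rich libraries, without overlap. Fabp7, a lipid-binding protein of glial precursors, was 21.7, 87.1, 91.1, 76.6 and 325 against 10.5, 97.4, 2.08, 72.3 and 38.4, and Mbp, a myelin protein, was 6.38, 18.5, 9.53, 15.5 and 9.12 against 0, 5.68, 7.64, 4.16 and 1.82. Both had rich libraries inside the poor range. Of 5 genes of the central nervous system, Slc1a3, a glutamate transporter that is also expressed outside brain, was apart and lower, at 20.6, 14.1, 23.4, 9.55 and 32.6 against 94.6, 45.4, 73.9, 46.6 and 41.4.

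The other genes with the largest higher values belong to no tissue list examined here. Cyfip2, a regulator of actin assembly, was 33.3, 31.6, 53.5, 38.6 and 70.9 against 8.46, 14.3, 3.01, 17.3 and 8.82, a difference of 2.14, the largest among genes apart, higher and averaging at least 10. Its muscle-free libraries, at 5.26 to 9.63, overlapped the rich range. Bicd1, a dynein adaptor, was 13.3, 16.3, 13.1, 25.6 and 33.4 against 6.11, 8.07, 3.47, 5.37 and 1.40, and Cdkn2d, an inhibitor of cyclin-dependent kinases, was 33.5, 23.9, 22.8, 59.7 and 21.0 against 13.3, 11.6, 5.33, 9.66 and 18.6. Fbxo7, Nsmce3 and Prr16 had differences of 1.35, 1.39 and 1.48, and Jazf1, Gramd1b, Rab15 and Ncoa7 had 1.23, 1.18, 1.15 and 1.13. Nsmce3 was as high in some muscle-free libraries, 8.15 to 23.1, as in the poor ones. Cep83os, with 1.33, lies beside Cep83 on the opposite strand, and without stated strand information reads from the pair cannot be told apart where they overlap.

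Blood, immune, growth and metabolic genes were not apart. Of 10 erythroid, 16 macrophage and immune, 28 proliferation, 17 glycolysis, 23 oxidative phosphorylation, 21 ribosomal protein and 11 mitochondrial genes, none was apart in either direction. The median differences of these lists were 0.0, 0.33, 0.33, 0.20, 0.23, 0.30 and 0.21 in the same order. All 28 proliferation genes and 20 of 21 ribosomal protein genes had a higher mean in the poor libraries, against 53.2% of all genes. The mean log2 of the proliferation list was highest in the blood-rich wild-type pulmonary library 1, at 7.43, against 6.35 to 6.59 in the rich libraries. The poor aortic libraries also lay above that range, but mutant pulmonary library 1 lay inside it. How far wild-type pulmonary library 1 set the direction of the 28 genes was not tested.

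The 5 poor libraries held different mixtures. Wild-type aortic library 1 had the highest mean log2 of the 10 for fast muscle, 5.91, and for myogenic genes, 4.86, and the lowest for neurons, 2.27. Wild-type aortic library 3 was the highest for bone, 4.44, epithelium, 4.0, tendon, 4.51, and lung and foregut genes, 3.82. The foregut and lung factor Nkx2-1 was 13.5 there and at most 4.04 in the other 9. Mutant aortic library 1 was the highest for body wall and limb factors, 5.09, with Emx2, a factor of the limb girdle and urogenital ridge, at 35.0. Mutant pulmonary library 1 was the highest for neurons, 5.59, with Stmn2, a growth-cone protein, at 250.3. The same library was the highest for central nervous system genes, 5.67, with Dcx, doublecortin of young neurons, at 609. It was also the highest for Hox genes, 3.54.

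Wild-type pulmonary library 1 stood apart by its blood. Its mean log2 for the erythroid list was 9.83, the highest of the 10, and the beta-globin gene Hbb-bs was 1422, 2051, 1188, 16659 and 868 in the poor libraries. In wild-type pulmonary library 1, 31 genes were at least 4-fold above all 9 others, against at most 4 in any other library. The muscle-free wild-type aortic library 2 was as rich in Hbb-bs, at 16809.6.

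**Figure D5:**
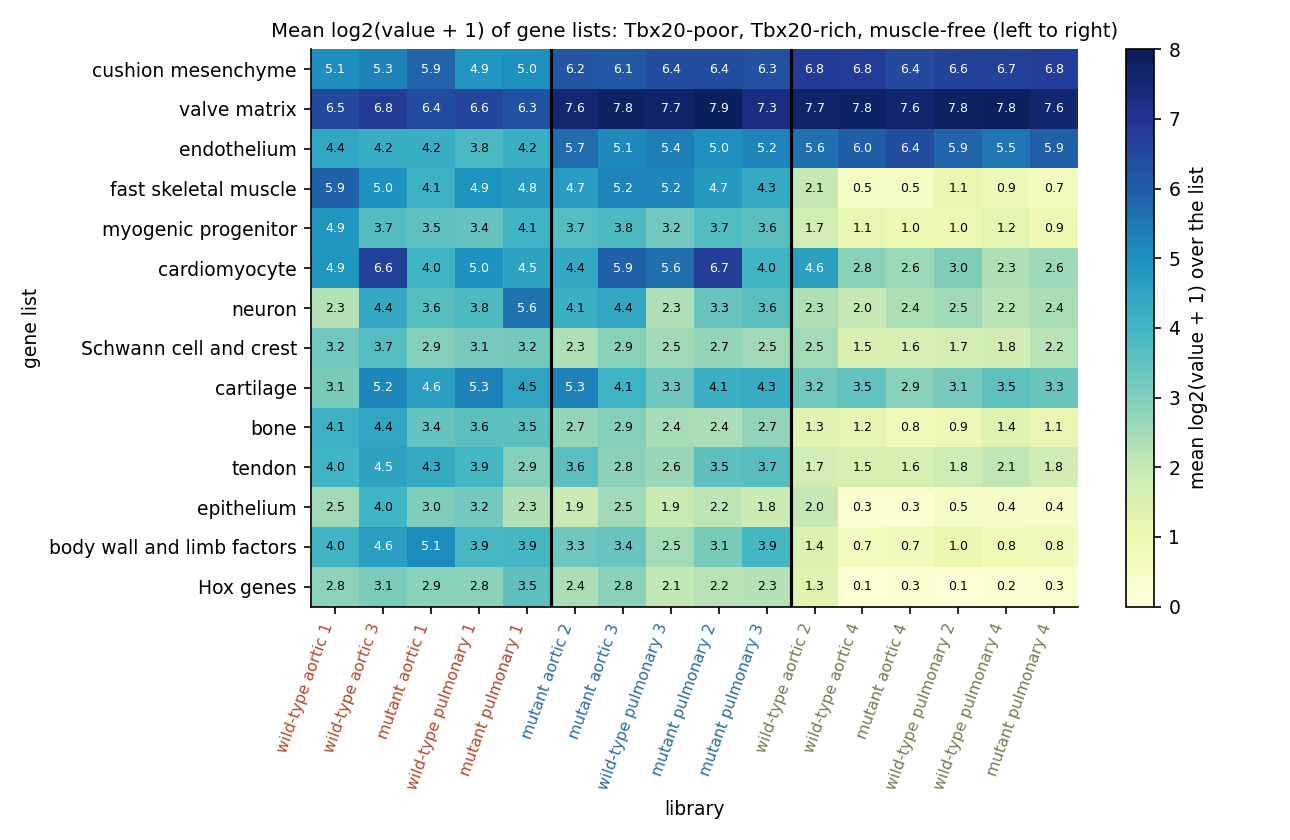
Mean log2(value + 1) over 14 gene lists (vertical) in the 16 libraries (horizontal), colour and printed number giving the mean, with lines between Tbx20-poor, Tbx20-rich and muscle-free libraries. Cushion mesenchyme runs from 4.86 to 5.87 in the poor to 6.12 to 6.36 in the rich libraries, while fast skeletal muscle overlaps.

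The muscle-free libraries, which the division did not use, extended the order of the 543 lower genes but not that of the 46 higher ones. In 502 of the 543 (92.4%) the muscle-free median was above the rich median, against 51.6% of all genes. The muscle-free libraries share litter JND7 with the rich set and no litter with the poor set, and the part of litter was not tested. Of the 46 higher genes, 25 (54.3%) had a muscle-free median under the rich median, against 48.4% of all genes, and 21 had one above it. All 46 had a muscle-free median under the poor median, against 7014 of 13805 genes compared. These 46 were chosen for high values in the poor libraries, which favours that outcome. The matrix genes Eln and Fbln5 overlapped the rich range in muscle-free libraries, at 31.7 to 78.6 and 78.4 to 210.4. Notch1, at 195 to 304, and Gata5, at 50.9 to 86.3, lay above every rich library.

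The aortic and pulmonary libraries, which share no library and differ in batch, were also compared on their own. Both valves draw on litters JNC10, JND7 and JND8, may share embryos, and were divided by the same Tbx20 threshold. The 2 comparisons are therefore not independent. Between the 3 poor and 2 rich aortic libraries 1139 genes were apart and lower, and 924 of them (81.1%) had a lower mean in the poor pulmonary libraries, against 47.1% of all genes. Between the 2 poor and 3 rich pulmonary libraries 1016 were apart and lower, and 472 genes were in both lists, which is 41.4% of the aortic and 46.5% of the pulmonary list. Over all genes, 8.25% were apart and lower in the aortic and 7.36% in the pulmonary libraries. For higher genes the lists held 446 and 591 genes with 44 in common, which is 9.87% of the aortic and 7.45% of the pulmonary list. Over all genes, 3.23% were apart and higher in the aortic and 4.28% in the pulmonary libraries. With 2 and 3 libraries on a side many more genes meet the rule than with 5 and 5.

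Tbx20 was next compared by the study's own labels over all 10 libraries, which were taken by their Mylpf level, so the division at 300 does not enter. Tbx20 was 517 ± 355 (SD, n = 6) in mutants and 322 ± 416 (SD, n = 4) in wild type. The difference was 0.93 on the log2 scale with p = 0.486 in a two-sided exact permutation test of 210 assignments, which can reach 0.0048. By valve it was 538 ± 427 (SD, n = 5) in pulmonary and 340 ± 322 (SD, n = 5) in aortic libraries. That difference was 0.66 with p = 0.421 in the same exact test over 252 assignments, and both were 0.486 after Benjamini-Hochberg adjustment over these 2 comparisons. At this number of libraries neither difference was detectable beyond the spread between them, and each label holds libraries of both sets. The Mylpf threshold left out the 6 libraries with the most Tbx20, 1032 to 1744, of which 4 were wild type. Over all 16 libraries the differences were -0.17 by genotype and 0.39 by valve. These tests therefore cannot say how Tbx20 depends on genotype or valve outside the 10 libraries.

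Genotype was then tested over all genes in the same 10 libraries with valve as a covariate. With limma and Benjamini-Hochberg adjustment, 3 of 13807 genes (0.0217%) had an adjusted p under 0.05, and 884 had an unadjusted p under 0.05. All 3 were higher in mutants and are copies of other genes, so their reads are uncertain where the authors' counting could split reads between near-identical sequences. Rps2-ps10, a processed copy of the ribosomal protein gene Rps2, was 104 ± 14.2 (SD, n = 6) in mutants and 1.95 ± 0.645 (SD, n = 4) in wild type, higher by 5.16 (SE 0.24, limma adjusted p = 6.69e-08). Gm9825, a processed copy of Rnps1, was listed at 0 in 3 of 4 wild-type libraries and was 24.9 to 44.8 in the mutants (limma adjusted p = 1.67e-06). Hmga1b, a copy of the chromatin gene Hmga1, was 35.2 ± 13.9 (SD, n = 6) against 4.06 ± 3.10 (SD, n = 4), higher by 2.97 (SE 0.43, limma adjusted p = 0.0321). The call on Hmga1b was lost with edgeR (adjusted p = 0.218) and with litter as a replicate block (adjusted p = 0.153), and leaving out 1 library in turn gave a limma adjusted p of 0.0026 without wild-type pulmonary library 3 to 0.163 without wild-type pulmonary library 1. The difference did not extend to all muscle-free libraries, where Rps2-ps10 was 62.1 and 70.3 in the 2 mutants and 64.6, 47.0, 2.20 and 0 in the 4 wild-type ones.

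No gene that separated the Tbx20 sets among those named above passed the genotype test. Jag1 was 24.8 ± 11.1 (SD, n = 4) in wild type and 8.02 ± 3.68 (SD, n = 6) in mutants, a difference of -1.53 (SE 0.39, limma adjusted p = 0.625). Wnt9b differed by 2.26 between mutants and wild type (SE 0.79, limma adjusted p = 0.715) and Bmp6 by 1.96 (SE 0.90, limma adjusted p = 0.767). Of the 6 mutant libraries 4 were Tbx20-rich and of the 4 wild-type libraries 1 was. Gata4 differed by 1.04 (SE 0.68, limma adjusted p = 0.794). Tbx15 differed by -0.23 (SE 0.43, limma adjusted p = 0.930) and Krt14 by -0.54 (SE 0.71, limma adjusted p = 0.888). Genotype and Tbx20 content were unevenly crossed in these 10 libraries, and the part of either in these differences was not tested.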

How the data were processed

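RNA was measured in 16 libraries, 4 per genotype and valve. Per the submitters' processing notes the authors used CASAVA 1.8.2, cutadapt 1.6, FastQC, RSEM 1.2.3 and GRCm38. No label or header states the normalisation or the gene filter. The authors deposited 1 table of 13964 genes, whose unit is a normalised count, treated here as a signal: each value is a whole number of reads times a step that differs by library. All values (100%) were whole multiples within a tolerance of 0.05, so reads were recovered, 4.56 to 8.68 M (M, 1e6) per library. Of the gene IDs, 13780 matched a symbol and 184 did not. Coordinates come from GENCODE for GRCm38.

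The members and the gene lists were chosen with earlier results of these data known. Genes that reached a value of 1 in 4 or more of the 10 libraries were kept and compared as log2(value + 1), a pseudocount of 1. Named genes were the 15 largest differences per direction among genes apart and averaging at least 10, leaving out predicted genes and mitochondrial or ribosomal RNA, up to 4 apart members of each list (2 of the largest where none was apart), markers of a cell type, and for genotype Jag1 and the 5 smallest p per direction. Other list members were named after their values were seen, to show the range of a list.

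Genotype was tested with limma 3.58.1 in R 4.3.3 over all genes with valve as a covariate. edgeR 4.0.16 (quasi-likelihood test) on the recovered reads called 2 genes, and DESeq2 1.42.0 was a further alternative. Tbx20 by genotype and valve used exact permutation tests in SciPy 1.17.1. Scripts were tested on simulated data. Same-numbered wild-type and mutant libraries of a valve come from 1 litter per the labels, and their deviations from group means correlated by 0.02, 0.03, 0.30 and 0.11 in the 4 such pairs. No replicate pair agreed within sampling noise: the lowest chi-square per gene over 24 pairs was 24.1. Alternatives were other pseudocounts, filters, scalings, thresholds, subsets by label and leaving out each library.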

Additional observations from a re-analysis of the deposited data

Results flagged for a closer look

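In each set of 5 libraries, a library far from the other 4 was looked for in list means and named genes. Of 258 such groups, 12 held one by Dixon's criterion, where chance gives about 1 in 20, or 12.9. Wild-type pulmonary library 1 stood apart among Tbx20-poor libraries in 5 of them: the erythroid list mean (9.83), the liver list mean (4.99), its only measured gene Ahsg (30.9), the mesothelium list mean (2.42, the lowest) and Nsmce3 (13.6, the lowest). Wild-type aortic library 3 was the highest poor library for Mybpc3 (27.7), Cnn1 (20.2) and Rab15 (25.5), and wild-type aortic library 1 the lowest for Pax1 (2.17). Among Tbx20-rich libraries, mutant pulmonary library 3 was the lowest for Eln (11.5), mutant aortic library 2 the highest for Tie1 (93.4), and the only wild-type one, wild-type pulmonary library 3, the highest for Rps2 (362).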

How the results depend on the processing

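The count of 46 genes higher in the Tbx20-poor libraries depended on the settings. It was 12 with a pseudocount of 5, 23 with a mean of at least 10, 73 with quantile scaling and 27 with scaling by read total alone. With fewer libraries it was 446 in aortic, 591 in pulmonary, 341 in mutant and 1558 in wild-type libraries alone, the last with 1 rich library, and 59 to 103 without 1 library in turn. Fewer libraries on a side make non-overlap easier to meet. The count of 543 lower genes was 1139 in aortic, 1016 in pulmonary and 1840 in wild-type libraries alone, and 550 to 685 without 1 library in turn. The other alternatives kept both counts within 1.5 times. Scaling by read total alone moved the median of all genes to -0.04 and quantile scaling to 0.07. For genotype, DESeq2 called 21 genes and the fit with Tbx20 as a covariate 10, where the cause was not tested, and leaving out 1 library gave 2 to 4. With litter as a replicate block 2 genes were called, so the pairing removed the call on Hmga1b and no other; without 1 library its limma adjusted p stayed under 0.05 only without wild-type pulmonary library 3 (0.0026) or mutant pulmonary library 1 (0.0404). Tbx20 by genotype was -0.17 (exact permutation p = 0.892) over all 16 libraries, against 0.93 in the 10; the 6 muscle-free libraries added, 4 of them wild type, hold 1032 to 1744. Without 1 library it was 0.61 to 1.69 by genotype (the highest without wild-type pulmonary library 3) and 0.30 to 1.13 by valve, and no p fell under 0.05. Depth limits genes of a few reads, such as the Hox genes and Dll1.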

Other observations

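The 3 gene copies called between genotypes have parent genes close to each other. Rnps1 lies on chromosome 17 (GRCm38) at 24414565 to 24425901, Rps2 at 24718116 to 24721929 and Hmga1 at 27556497 to 27563674. Nkx2-5, whose control the Cre recombinase is under, lies on the same chromosome at 26838664 to 26845009. The copies lie elsewhere, Hmga1b on chromosome 11 and Gm9825 on chromosome 6. Of the stretches of 31 bases in each copy's transcript, 82.1% occur in Rps2 for Rps2-ps10, 82.2% in Rnps1 for Gm9825 and 92.7% in Hmga1 for Hmga1b. In the muscle-containing libraries Rps2 was 362 to 617 in wild type and 211 to 261 in mutants, and Hmga1 was 104 to 135 in wild type and 25.1 to 83.5 in mutants, so neither parent overlapped and both lay lower where the copy was higher. Rnps1, at 111 to 190.2 in wild type and 95.2 to 154 in mutants, overlapped. In the muscle-free libraries the parent gene was also lower where the copy was present: Rps2 was 169 and 181 in the 2 wild-type libraries with Rps2-ps10 at 64.6 and 47.0, and 335 and 284 in the 2 with the copy at 0 and 2.20. Gm9825 followed the same libraries, at 29.5 and 15.6 against 0 and 0.489. These genes were singled out after their values were seen, and what sets these values was not tested.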
